A study of Homo sapiens with 21 samples.

Results

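Immune checkpoint ligands on tumor cells were followed here as RNA in sorted populations of a lung cancer cell line. They were chosen as a named set of 8 genes (CD274, CD276, CD47, PVR, NT5E, LGALS9, LGALS1 and CD24), looked up by symbol among the 20111 genes listed. 7 of the 8 were examined, and CD24 was not analysed here. The level of each gene is given in FPKM, fragments per kilobase of transcript scaled to the number of mapped fragments, which corrects for gene length and depth.

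Checkpoint ligands are proteins that a tumor cell carries or secretes and that restrain immune cells. CD274 (PD-L1) and CD276 (B7-H3) belong to the B7 family that acts on T cells, CD47 signals to SIRPA on macrophages and limits phagocytosis, and PVR binds the receptors TIGIT, CD96 and CD226 on T and NK cells. NT5E (CD73) is an enzyme that makes the suppressive nucleoside adenosine, and the galectins LGALS9 and LGALS1 bind sugar chains on immune cell surfaces.

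The samples were bulk polyadenylated RNA from PC-9, an established human non-small cell lung cancer line with an EGFR exon 19 deletion. Cells were sorted by flow cytometry for surface EGFR in 6 rounds, keeping the lowest or the highest 5 to 10% each time, which gave the EGFR-low and EGFR-high lines. There were 21 libraries in 7 groups of 3, and the paper describes replicates as separate experiments on different occasions. They came from 2 experiments that were listed in separate tables and normalized separately, so levels are set side by side across them without a test.

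The untreated experiment had 9 libraries: Parental (unsorted PC-9), EGFR-low and EGFR-high, each harvested 24 h after seeding with no drug. The vorinostat experiment had 12 libraries: both sorted lines, each with DMSO (the solvent) or with 1 µM vorinostat (SAHA, an inhibitor of histone deacetylases) for 72 h, begun 24 h after seeding. All groups are labelled with an EGFR deletion, whose last residue number rises by 1 from sample to sample, and that of the first sample was taken for all. No unsorted cells were in the vorinostat experiment. The line was grown without immune cells.

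FPKM summed over genes was 468000 to 593000 in the untreated libraries and 511000 to 583000 in those of the vorinostat experiment. Between 13910 and 15089 genes were above 0 in the former and between 15188 and 16449 in the latter. Read totals are not listed. From the spacing of the smallest values, the depth of the untreated libraries relative to Parental 1 was 0.707 (Parental 3) to 1.495 (EGFR-high 3), and it could not be settled for the vorinostat experiment.

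Cell type, but not the identity of the line, was checked with marker genes. All 7 epithelial markers passed the filter on low values in both experiments, with sums of 1835 to 4084 FPKM in the untreated libraries and 1769 to 3752 FPKM in the vorinostat experiment. KRT8 was the highest of them in all untreated libraries, at up to 1283 FPKM, and in 5 of the 12 of the vorinostat experiment, where KRT7 led in 5 of the 6 EGFR-low libraries. All 10 leukocyte markers were listed and summed to 17.1 to 39.6 FPKM and 15.5 to 40.0 FPKM, most of it CD68 (up to 39.3 FPKM). The pan-leukocyte gene PTPRC reached 0.0219 FPKM untreated and 0.805 FPKM in the vorinostat experiment, and CD3D and MS4A1 were listed at 0 in all untreated libraries. EGFR-low DMSO 1 had the highest PTPRC, CD3E (0.937 FPKM), MS4A1 (1.18 FPKM) and NKG7 (1.35 FPKM), beside 21.9 FPKM of CD68 in a sum of 28.4 FPKM. The 6 fibroblast markers summed to 1.05 to 5.88 FPKM and 1.02 to 4.04 FPKM, led by COL1A1, with DCN listed at 0 throughout. Of 3 endothelial markers 2 were listed, and they summed to 2.26 to 8.30 FPKM and 2.23 to 8.10 FPKM, led by CDH5.

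The sort marker followed its label at the RNA level. EGFR was at 60.2, 26.5 and 60.6 FPKM in the EGFR-low libraries, at 269, 161 and 243 FPKM in EGFR-high and at 261, 120 and 244 FPKM in Parental. The log2 difference of EGFR-low from EGFR-high was -2.23 (adjusted p 0.011, limma), and that from Parental was -2.07 (adjusted p 0.0261). EGFR-high and Parental differed by 0.15 (adjusted p 0.895), so by EGFR RNA the EGFR-high line was not set apart from unsorted cells. EGFR-low was also lower than EGFR-high under DMSO, by -2.13 (adjusted p 0.000569), and under vorinostat, by -3.09 (adjusted p 4.55e-05). Every log2 difference here is of FPKM plus 1, and a gene is called when its p, adjusted over all tested genes, is under 0.05.

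In the main fit the drug left no called gene. CDKN1A, which histone deacetylase inhibitors often raise, was at 18.6, 17.5 and 20.1 FPKM in EGFR-low with DMSO and at 27.6, 15.3 and 17.5 FPKM with vorinostat. In EGFR-high it was at 3.62, 3.17 and 8.93 FPKM with DMSO and at 21.7, 1.79 and 3.25 FPKM with vorinostat. Only the first vorinostat library of each line was above all DMSO libraries of its line. CDKN1A and the other drug checks, H1F0 and GSN, were each higher in every DMSO library than in any untreated library of the same line. In EGFR-low, H1F0 was at 52.6 to 86.3 FPKM untreated and at 490 to 637 FPKM with DMSO. The experiments were normalized separately, and this difference was not tested. The drug difference of CDKN1A was 0.06 in EGFR-low (adjusted p 1) and 0.16 in EGFR-high, that of H1F0 0.07 and 0.19, and that of GSN -0.24 and 0.10, none of them called.

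4 libraries of the vorinostat experiment stood apart from their groups. The first pair was EGFR-low DMSO 1 and EGFR-high DMSO 3, which carried genes of the other line. 31 genes were at 10 FPKM or more in EGFR-high DMSO 1 and 2 and at 0.1 FPKM or less in EGFR-low DMSO 2 and 3, and all 31 were above that limit in EGFR-low DMSO 1, at a median of 21.6% (quartiles 19.2 to 23.3%) of their EGFR-high level. In reverse, 48 genes of EGFR-low DMSO 2 and 3 were at a median of 24.9% (21.7 to 26.4%) in EGFR-high DMSO 3. EGFR-high vorinostat 1 carried 47 of these 48 genes above the limit at a lower level, a median of 2.196% (1.80 to 3.28%), against 3 and 4 genes in its replicates. The narrow quartiles of the first pair mean that the genes kept nearly 1 common ratio in each library. EGFR-low DMSO 1 and EGFR-high DMSO 3 were also the only libraries with all 10 leukocyte markers above 0, although at low levels. The cause was not tested.

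The other pair was the first vorinostat library of each line. The correlation of log2 values across genes was 0.953 and 0.951 between EGFR-high vorinostat 1 and its replicates, which correlated at 0.984 with each other, and genes are not independent replicates. EGFR-low vorinostat 1 correlated at 0.978 and 0.977 with its replicates. These libraries had the largest mitochondrial share of FPKM, 22.2% (EGFR-low) and 24.2% (EGFR-high), against 7.27 to 18.6% in the others of that experiment. EGFR-low DMSO 1 correlated at 0.960 and 0.957 with its own replicates and at 0.953 with EGFR-high DMSO 3. EGFR-low DMSO 2 and 3 correlated at only 0.794 to 0.801 with EGFR-high DMSO 1 and 2. Untreated EGFR-low libraries correlated at 0.881 to 0.957 with those of EGFR-high, so the lines were closer there. Low correlations within groups were not limited to this experiment. Untreated libraries of 1 group correlated at 0.903 (Parental 2 and 3) to 0.988 (EGFR-low 1 and 3), and EGFR-low 2 correlated at 0.938 and 0.935 with its replicates. Parental 2 and EGFR-high 2 were closer to each other, at 0.983, than to their own groups, and so were Parental 1 and EGFR-high 1, at 0.988. Differences of the members between the lines are therefore also given without the pair of the same treatment, and named genes of related lists where their call changed.

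The EGFR-low line also differed between experiments. 107 genes were under 0.1 FPKM in all untreated EGFR-low libraries and at 5 FPKM or more in EGFR-low DMSO 2 and 3, and 48 genes did the reverse, while 0 genes did either in EGFR-high. The lung lineage gene NKX2-1 was at most 0.0690 FPKM in every untreated library but at 25.6, 51.1 and 37.9 FPKM in EGFR-low with DMSO. Whether the EGFR-low cells of both experiments were the same population was not tested. The lung lineage list of 3 genes summed to at most 0.196 FPKM untreated and to 0.244 to 53.9 FPKM in the vorinostat experiment.

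A gene was tested if it reached 1 FPKM in 3 libraries of the experiment, which left 11305 genes untreated and 12236 in the vorinostat experiment. All 7 members passed in the vorinostat experiment and 6 did untreated, where LGALS9 did not. Among the tested genes the members were mostly abundant: of untreated genes, 92.5% had a lower mean than LGALS1, 87.3% than CD47, 87.0% than NT5E, 82.4% than PVR, 61.4% than CD276 and 15.7% than CD274. In the vorinostat experiment LGALS1 was above 98.5% of tested genes and LGALS9 above 17.7%.

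**Figure D1:**
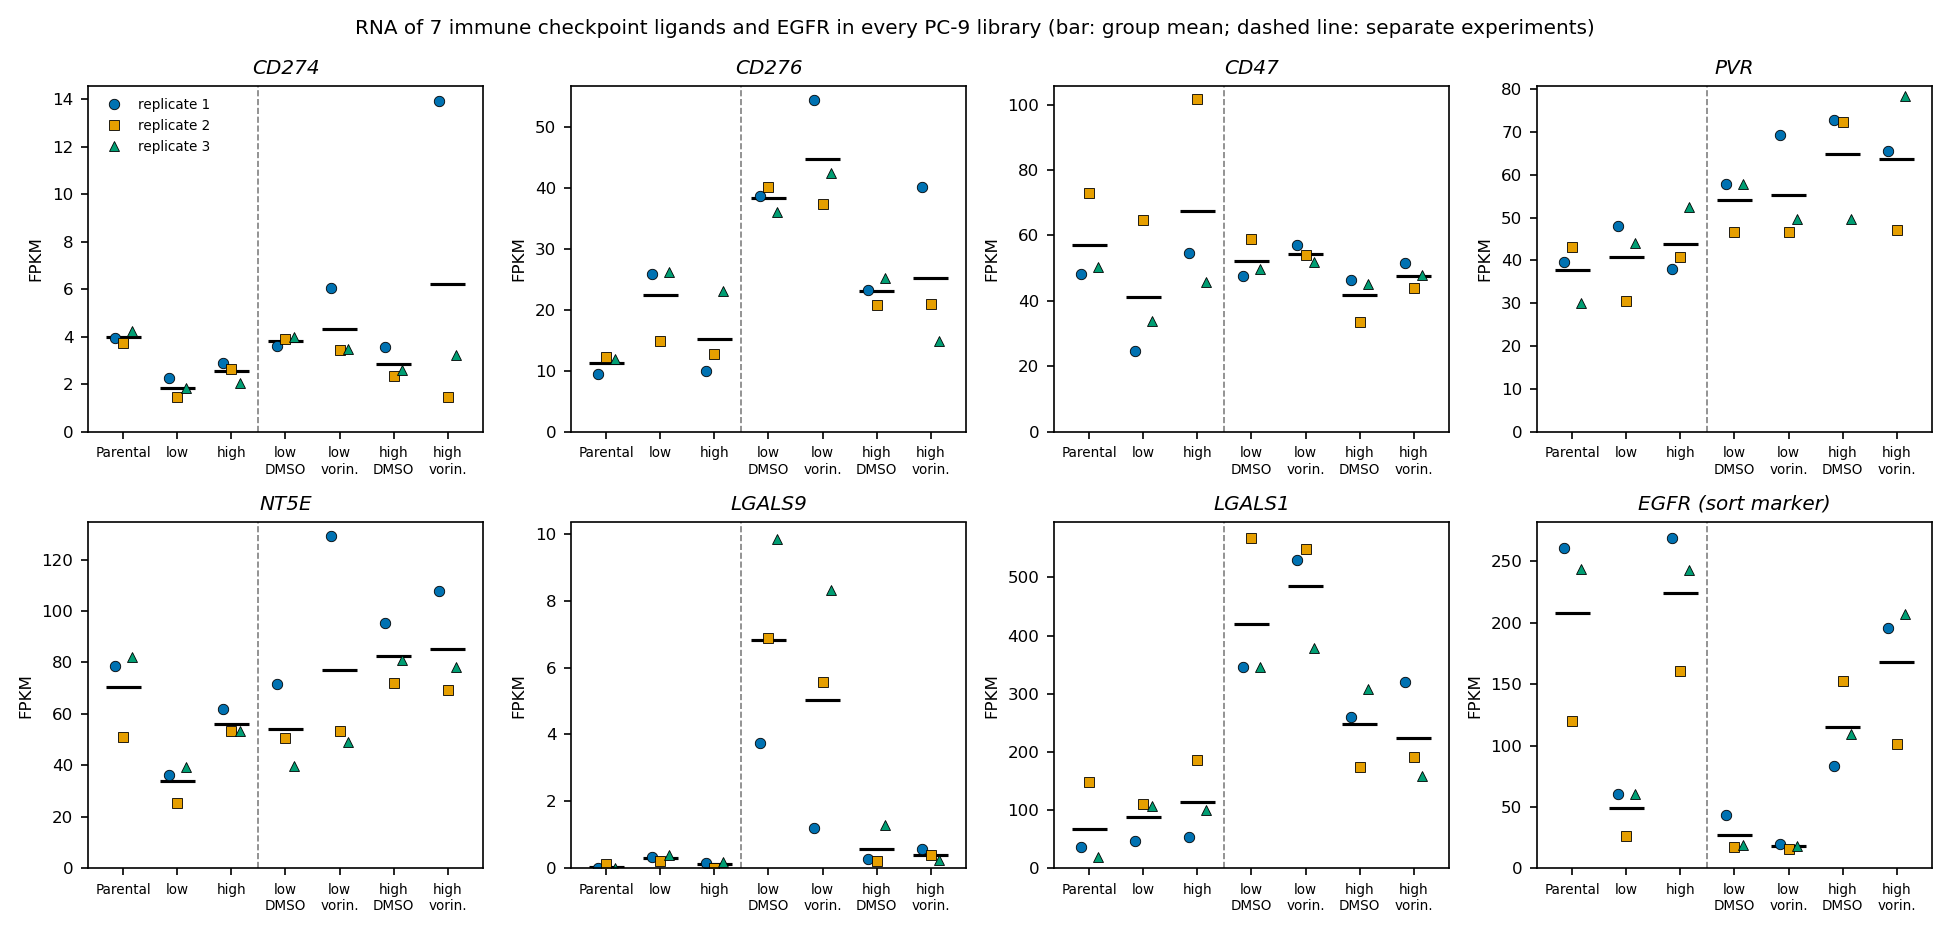
FPKM of the 7 members and of EGFR in each library (symbol: replicate number; bar: group mean; dashed line: border between the separately normalized experiments). LGALS9 was at 3.74 to 9.84 FPKM in EGFR-low with DMSO and at no more than 0.393 FPKM in any untreated library, and CD274 of EGFR-high vorinostat 1 lay apart at 13.9 FPKM.

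The first question was whether sorting for EGFR alone set the ligands apart. Between untreated EGFR-low and EGFR-high, 0 of 6 tested members were called by limma, where 431 of all genes were (3.81%; 1.62% higher and 2.19% lower in EGFR-low), and 1 member, NT5E, had an unadjusted p under 0.05, beside 13.5% of all genes. Against Parental, 0 of 6 were called for EGFR-low, against 1.6% of all genes, and 3 members, CD274, CD276 and NT5E, had an unadjusted p under 0.05, beside 14.8% of all genes. For EGFR-high against Parental, 0 of 6 were called, against 0.0708% of all genes, and 1 had an unadjusted p under 0.05 (CD274), beside 9.67% of all genes. With a replicate block, NT5E was called between the sorted lines, with 965 of all genes, and CD274 and NT5E were called for EGFR-low against Parental, with 525 of all genes. Between the untreated sorted lines, libraries of equal replicate number deviated from their group means alike, at correlations across genes of 0.343, 0.73 and 0.689, although they are not labelled as pairs. The count of 0 thus depends on the block, and at these background shares it does not set the members apart from other genes. For EGFR-low against Parental, 3 of 6 members with an unadjusted p under 0.05 was a larger share than the 14.8% of all genes. That difference was not tested. These comparisons share libraries with each other.

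The second question was how the sorted lines compared in the drug experiment. With DMSO, EGFR-low and EGFR-high differed in 2 of 7 members, CD276 and LGALS9, both higher in EGFR-low, where 51.8% of all tested genes were called (31.1% higher and 20.7% lower). With vorinostat, 3 of 7 members were called, CD276, LGALS9 and LGALS1, all higher in EGFR-low, beside 59% of all genes (36.2% higher and 22.8% lower). An unadjusted p under 0.05 was found for 4 of 7 members with DMSO, beside 57.8% of all genes, and for 3 of 7 with vorinostat, beside 63.3%. The members' shares were below the background in both, so the number of called members does not set them apart from other genes. 

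The third question was whether vorinostat changed the ligands. Of 7 members, 0 were called by limma for vorinostat against DMSO in EGFR-low (0% of all genes) and 0 had an unadjusted p under 0.05 (0.94% of all genes). In EGFR-high 0 of 7 were called (0% of all genes) and 0 had an unadjusted p under 0.05 (3.34%). The difference between the lines in their drug response, the interaction, had 0 of 7 called (0% of all genes) and 0 had an unadjusted p under 0.05 (1.76%). At these shares, counts of 0 among 7 do not set the members apart. The drug comparisons share libraries with the interaction.

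The p-values measure the spread between these samples of 1 cell line. For 3 against 3 libraries the smallest exact two-sided permutation p is 0.1, and it was reached by every pair of groups that did not overlap. In bulk samples, fewer cells of a type and less RNA per cell cannot be told apart.

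CD274 encodes PD-L1, the ligand of PDCD1, an inhibitory receptor on T cells. It was at 3.93, 3.75 and 4.26 FPKM in Parental, at 2.28, 1.46 and 1.86 FPKM in EGFR-low and at 2.92, 2.63 and 2.08 FPKM in EGFR-high. Both sorted lines were below every Parental library, and they overlapped each other. With DMSO it was at 3.61, 3.93 and 3.99 FPKM in EGFR-low and at 3.57, 2.36 and 2.62 FPKM in EGFR-high, and with vorinostat at 6.07, 3.46 and 3.48 FPKM in EGFR-low and at 13.9, 1.48 and 3.23 FPKM in EGFR-high. The lines with DMSO did not overlap, although narrowly. The single value of 13.9 FPKM, in EGFR-high vorinostat 1, was the highest of all 21 libraries, while EGFR-high vorinostat 2 was the lowest of its experiment.

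The log2 difference of CD274 between EGFR-low and Parental was -0.81 (95% interval -1.25 to -0.37), with an adjusted p of 0.0837 that did not pass. A replicate block gave an adjusted p of 0.0389, and the alternatives ranged from 0.0389 to 0.33. EGFR-high against Parental differed by -0.50 (adjusted p 0.507). EGFR-low and EGFR-high differed by -0.31 untreated (adjusted p 0.608), by 0.34 with DMSO (0.578) and by -0.05 with vorinostat (0.937). With both DMSO libraries that carried genes of the other line left out, the DMSO value was again 0.34 (adjusted p 0.687). The vorinostat value turned on single EGFR-high libraries. It was 0.68 without EGFR-high vorinostat 1, with an adjusted p of 0.0408 in a range over all alternatives of 0.0408 to 0.973. It was -0.61 without EGFR-high vorinostat 2, and 0.46 (adjusted p 0.12) with both first vorinostat libraries left out. For vorinostat against DMSO in EGFR-high the difference was 0.50 (interval -0.57 to 1.57) with EGFR-high vorinostat 1 and -0.24 without it.

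The promoter table used, drawn from RefSeq (GRCh38.p14), gave windows for 6 of the 7 members, all but LGALS1. The 250 bases before the start of CD274 are printed because its regulator IRF1, described further on, differed between the lines. Capitals mark matches on either strand to GGGCGG (GC box, in 42.6% of 35116 promoters), CCAAT (32.01%), GAAA, any 2 bases and GAAA (interferon response type, 3.02%) and TGANTCA (AP-1 type, 6.57%). The window chr9:5450292-5450541 (+ strand) is 54.8% G and C, against a median of 58% over all promoters, and holds 1 GC box and 2 interferon response type matches that overlap each other. A match describes letters and is not a site of binding.
CD274: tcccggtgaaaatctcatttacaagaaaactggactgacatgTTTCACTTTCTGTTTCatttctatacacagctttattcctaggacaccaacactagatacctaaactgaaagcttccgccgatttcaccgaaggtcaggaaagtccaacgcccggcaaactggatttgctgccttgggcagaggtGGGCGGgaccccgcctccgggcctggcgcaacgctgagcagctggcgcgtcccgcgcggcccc

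CD276 encodes B7-H3, a B7 family protein found on many carcinomas whose receptor is not settled. It was at 9.56, 12.3 and 11.99 FPKM in Parental, at 26.0, 14.9 and 26.3 FPKM in EGFR-low and at 9.96, 12.8 and 23.1 FPKM in EGFR-high. EGFR-low was above every Parental library, while EGFR-high overlapped both. In the vorinostat experiment it was at 38.6, 40.1 and 36.1 FPKM in EGFR-low with DMSO and at 23.3, 20.9 and 25.3 FPKM in EGFR-high with DMSO. With vorinostat it was at 54.5, 37.3 and 42.4 FPKM in EGFR-low and at 40.2, 20.9 and 14.8 FPKM in EGFR-high. The lines were separate with DMSO, and with vorinostat they overlapped only through EGFR-high vorinostat 1 at 40.2 FPKM.

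CD276 was called higher in EGFR-low with DMSO, by 0.70 (SE 0.27, interval 0.11 to 1.30, adjusted p 0.0482). That call sat at the threshold: leaving out any 1 of the 6 libraries lost it, with adjusted p of 0.0891, 0.116 and 0.0856 without EGFR-low DMSO 1, 2 and 3, and of 0.097, 0.132 and 0.0638 without EGFR-high DMSO 1, 2 and 3. Without both DMSO libraries that carried genes of the other line it was 0.76 (adjusted p 0.106), and without the first vorinostat libraries it had an adjusted p of 0.00167. Scaling by median of ratios gave 0.58 (adjusted p 0.135), so the adjusted p ran from 0.00167 to 0.135 over the alternatives.

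With vorinostat the CD276 difference was 0.90 (interval 0.299 to 1.495, adjusted p 0.0144). The call was lost without EGFR-low vorinostat 1 (0.75, adjusted p 0.0563) and without EGFR-high vorinostat 3 (0.59, adjusted p 0.0567), with median-of-ratios scaling (0.72, adjusted p 0.0608) and with the other groups dropped from the fit (adjusted p 0.0553). With both first vorinostat libraries left out the difference was 1.13 (adjusted p 0.000574), and the alternatives ranged from 0.000198 to 0.0608. Its direction was the same in the untreated experiment, at 0.56 (interval -0.16 to 1.28, adjusted p 0.543), where the test did not pass. Against Parental it differed by 0.89 in EGFR-low (adjusted p 0.245) and by 0.33 in EGFR-high. The EGFR-high value against Parental was 0.0097 without EGFR-high 3 and 0.58 without EGFR-high 1. The same omissions gave 0.885 and 0.32 for untreated EGFR-low minus EGFR-high.

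The promoter of CD276 is printed because this gene and LGALS9 were both higher in EGFR-low of the drug experiment. The window chr15:73684133-73684382 (+ strand), before the first of 2 listed starts, is 80.8% G and C and holds 7 GC boxes, some of which overlap, and 1 CCAAT box in capitals.
CD276: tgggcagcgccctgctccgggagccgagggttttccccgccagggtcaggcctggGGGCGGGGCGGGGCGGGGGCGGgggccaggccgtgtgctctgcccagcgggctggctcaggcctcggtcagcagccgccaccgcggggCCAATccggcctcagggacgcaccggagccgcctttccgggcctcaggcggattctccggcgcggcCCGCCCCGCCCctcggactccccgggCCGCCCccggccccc

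CD47 is a surface protein that tells macrophages not to engulf the cell. It was at 48.3, 72.9 and 50.3 FPKM in Parental, at 24.6, 64.8 and 34.0 FPKM in EGFR-low and at 54.7, 102 and 45.9 FPKM in EGFR-high. The second replicate was the highest of each untreated group, and all 3 groups overlapped. At each replicate number EGFR-low was below both other groups. With DMSO it was at 47.7, 58.9 and 49.9 FPKM in EGFR-low and at 46.3, 33.5 and 45.3 FPKM in EGFR-high. With vorinostat it was at 57.0, 54.01 and 52.0 FPKM in EGFR-low and at 51.6, 43.8 and 47.8 FPKM in EGFR-high. EGFR-low was above EGFR-high without overlap in both, by small steps.

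No CD47 difference was called under any alternative. EGFR-low minus EGFR-high was -0.73 untreated (adjusted p 0.495, and 0.0606 with a replicate block, in a range of 0.0606 to 0.836), 0.32 with DMSO (adjusted p 0.0666) and 0.19 with vorinostat (adjusted p 0.266). Without both DMSO libraries that carried genes of the other line the DMSO value was 0.45 (adjusted p 0.0527), and without both first vorinostat libraries the vorinostat value was 0.21 (adjusted p 0.303). Over all alternatives the difference ran from -1.11 to -0.39 untreated, from 0.18 to 0.45 with DMSO and from 0.010 (median-of-ratios scaling) to 0.24 with vorinostat. The sign thus differed between the experiments, with no value that passed the test. EGFR-low differed from Parental by -0.55 (adjusted p 0.518), in a range of -0.93 (without EGFR-low 2) to -0.25 (without EGFR-low 1).

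PVR (CD155) is bound by the inhibitory receptors TIGIT and CD96 and by the activating receptor CD226. Its FPKM was 39.7, 43.1 and 30.1 in Parental, 48.0, 30.6 and 44.0 in EGFR-low and 38.1, 40.8 and 52.6 in EGFR-high, with all groups overlapping. In EGFR-low it was at 57.8, 46.6 and 57.9 FPKM with DMSO and at 69.3, 46.8 and 49.7 FPKM with vorinostat. In EGFR-high it was at 72.8, 72.4 and 49.7 FPKM with DMSO and at 65.6, 47.2 and 78.3 FPKM with vorinostat. Every pair of neighbouring groups overlapped in both experiments. EGFR-low minus EGFR-high was -0.11 untreated (adjusted p 0.954), -0.25 with DMSO (0.362) and -0.19 with vorinostat (0.459). With DMSO its interval was -0.72 to 0.23. Without the DMSO libraries that carried genes of the other line the DMSO value was -0.48 (adjusted p 0.142), and without both first vorinostat libraries the vorinostat value was -0.33 (adjusted p 0.277).

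NT5E encodes CD73, which turns AMP into adenosine at the cell surface. It was at 78.7, 50.9 and 82.1 FPKM in Parental, at 36.3, 25.5 and 39.5 FPKM in EGFR-low and at 61.8, 53.3 and 53.2 FPKM in EGFR-high. EGFR-low was below every library of both other groups, while Parental and EGFR-high overlapped. With DMSO it was at 71.5, 50.6 and 39.8 FPKM in EGFR-low and at 95.2, 72.0 and 80.8 FPKM in EGFR-high. With vorinostat it was at 129, 53.2 and 49.1 FPKM in EGFR-low and at 108, 69.3 and 78.1 FPKM in EGFR-high. The lines were separate with DMSO, where the highest EGFR-low value, in EGFR-low DMSO 1, came just below the lowest of EGFR-high, and with vorinostat the first library of each line was the highest and the lines overlapped.

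The difference of NT5E between the lines was negative in all 3 comparisons, without a call in any. The differences were -0.73 untreated (interval -1.33 to -0.14, adjusted p 0.223), -0.64 with DMSO (adjusted p 0.129) and -0.26 with vorinostat (adjusted p 0.524). A replicate block moved the untreated value to an adjusted p of 0.038, in a range of 0.038 to 0.502 over the alternatives. The vorinostat value was only -0.009 without EGFR-low vorinostat 3. Without EGFR-low vorinostat 1 it was -0.70 with an adjusted p of 0.0317 (range 0.0317 to 0.985), and with both first vorinostat libraries left out it was -0.52 (adjusted p 0.0829). With the same pair left out of the fit, the DMSO value of -0.64 had an adjusted p of 0.0167 (range 0.0167 to 0.358), and without the DMSO libraries that carried genes of the other line it was -0.87 (adjusted p 0.103). The DMSO value was also called with a replicate block (adjusted p 0.0209) and with the other groups dropped from the fit (adjusted p 0.0398).

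Against Parental, NT5E differed in EGFR-low by -1.03 (SE 0.27, interval -1.63 to -0.44, adjusted p 0.102). The adjusted p was 0.0171 with a replicate block, and without Parental 2, the lowest of its group, the difference was -1.25 with an adjusted p of 0.0391. Over the alternatives the adjusted p ran from 0.0171 to 0.339. EGFR-high differed from Parental by -0.30. The order of untreated levels was thus Parental, EGFR-high and EGFR-low, with only the step to EGFR-low free of overlap.

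LGALS9 encodes galectin-9, a ligand of HAVCR2 (TIM-3) on T cells. It was barely present in the untreated experiment, with 2 Parental libraries and 1 EGFR-high library listed at 0 and the other Parental library at 0.120 FPKM. EGFR-low was at 0.328, 0.204 and 0.393 FPKM and EGFR-high at 0.156, 0 and 0.192 FPKM. EGFR-low was above both other groups without overlap, at levels under the filter and not tested by limma. With DMSO it was at 3.74, 6.87 and 9.84 FPKM in EGFR-low and at 0.270, 0.211 and 1.29 FPKM in EGFR-high. With vorinostat it was at 1.22, 5.56 and 8.32 FPKM in EGFR-low and at 0.570, 0.400 and 0.242 FPKM in EGFR-high. No EGFR-low library overlapped EGFR-high in either, and the libraries nearest to the other line were EGFR-low DMSO 1 and EGFR-high DMSO 3, which carried genes of the other line, and the first vorinostat library of each line.

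The LGALS9 difference was 2.28 with DMSO (SE 0.47, interval 1.25 to 3.31, adjusted p 0.00199) and 1.88 with vorinostat (interval 0.85 to 2.91, adjusted p 0.00487). Its size depended on the constant added to FPKM: with 5 and with 0.1 it was 1.05 and 3.57 with DMSO, and 0.82 and 3.03 with vorinostat, so with 5 it was below the LGALS1 difference of 1.15 with vorinostat. Both calls were kept under every alternative, with adjusted p of 0.0006 to 0.0115 for DMSO and 0.000324 to 0.0237 for vorinostat. Without the DMSO libraries that carried genes of the other line the DMSO difference was 2.90 (adjusted p 0.0012), and with both first vorinostat libraries left out the vorinostat difference was 2.57 (adjusted p 0.000734). Vorinostat against DMSO differed by -0.53 in EGFR-low (interval -1.56 to 0.50), an interval too wide to call it unchanged.

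LGALS9 has near copies elsewhere in the genome, and 13.2% of its 6075 runs of 50 bases also occur in other genes, 6.95% in LGALS9C, 4.10% in AC015688.4, 3.64% in LGALS9DP and 3.62% in LGALS9B. LGALS9C was at 3.30, 5.69 and 3.58 FPKM in EGFR-low and at 1.78, 1.01 and 1.89 FPKM in EGFR-high with DMSO. LGALS9B was at 1.70, 2.58 and 1.62 FPKM and at 1.26, 0.993 and 1.41 FPKM in the same libraries. With DMSO the copies thus lay above LGALS9 itself in EGFR-high and below it in EGFR-low. Untreated, LGALS9B was at 1.69, 0.983 and 1.01 FPKM in EGFR-low and at 0.263, 0.581 and 0.468 FPKM in EGFR-high. LGALS9C was also higher in untreated EGFR-low without overlap, and both copies lay above LGALS9 in each of these libraries. The part of shared reads in the LGALS9 difference was not tested in either experiment. LGALS9C was not called with DMSO (1.01, adjusted p 0.0589) and was called with vorinostat (1.04, adjusted p 0.0471), a call lost without the DMSO libraries that carried genes of the other line (adjusted p 0.0631). Of the other members, PVR shares 2.00% and CD276 1.46% of such runs with other genes, CD47 0.0962%, and CD274, NT5E and LGALS1 0%.

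The promoter window of LGALS9, chr17:27630938-27631187 (+ strand), stands beside that of CD276, which it differs from in base content. It is 51.6% G and C, and none of the motifs searched occurs in it, so it has no capitals.
LGALS9: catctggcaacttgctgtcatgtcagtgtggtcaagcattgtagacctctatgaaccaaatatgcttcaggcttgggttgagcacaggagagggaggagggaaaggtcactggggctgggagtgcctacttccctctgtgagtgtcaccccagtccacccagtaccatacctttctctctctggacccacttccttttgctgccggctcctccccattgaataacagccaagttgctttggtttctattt

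LGALS1 encodes galectin-1, a secreted lectin that can cause activated T cells to die, and had the highest mean of the members in every group but Parental, where NT5E was at a mean of 70.6 FPKM and LGALS1 at 68.3 FPKM. It was at 37.1, 149 and 19.1 FPKM in Parental, at 46.5, 110 and 107 FPKM in EGFR-low and at 53.3, 186 and 100 FPKM in EGFR-high. The second replicate was the highest of each untreated group, and all groups overlapped widely. With DMSO it was at 347, 567 and 346 FPKM in EGFR-low and at 260, 175 and 308 FPKM in EGFR-high. With vorinostat it was at 529, 549 and 379 FPKM in EGFR-low and at 321, 191 and 158 FPKM in EGFR-high. Every EGFR-low library was above every EGFR-high library in both, unlike in the untreated experiment.

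LGALS1 was called higher in EGFR-low with vorinostat, by 1.16 (interval 0.51 to 1.81, adjusted p 0.00551), and this was kept under every alternative (adjusted p 0.00118 to 0.0261). With both first vorinostat libraries left out it was 1.39 (adjusted p 0.00446). With DMSO the difference of 0.76 (SE 0.30, interval 0.11 to 1.41) had an adjusted p of 0.0507 and just missed the threshold. It passed without EGFR-low DMSO 1 (0.87, adjusted p 0.0488) and without EGFR-high DMSO 3 (0.93, adjusted p 0.034), the libraries that carried genes of the other line, and without both (1.05, adjusted p 0.034). It also passed with a pseudocount of 5 (adjusted p 0.049), quantile normalization (0.0362), a fit without the other groups (0.0459) and both first vorinostat libraries left out (0.0289). The difference was smallest, at 0.52, without EGFR-low DMSO 2, the highest library of its group. Over all alternatives the adjusted p ran from 0.0289 to 0.201. Untreated, the lines differed by -0.29 (adjusted p 0.951), and EGFR-low and EGFR-high differed from Parental by 0.77 (adjusted p 0.612) and 1.06 (adjusted p 0.559). Leaving out Parental 3, the lowest of its group, moved these to 0.13 and 0.42, and leaving out Parental 2, the highest, to 1.58 and 1.87.

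**Figure D2:**
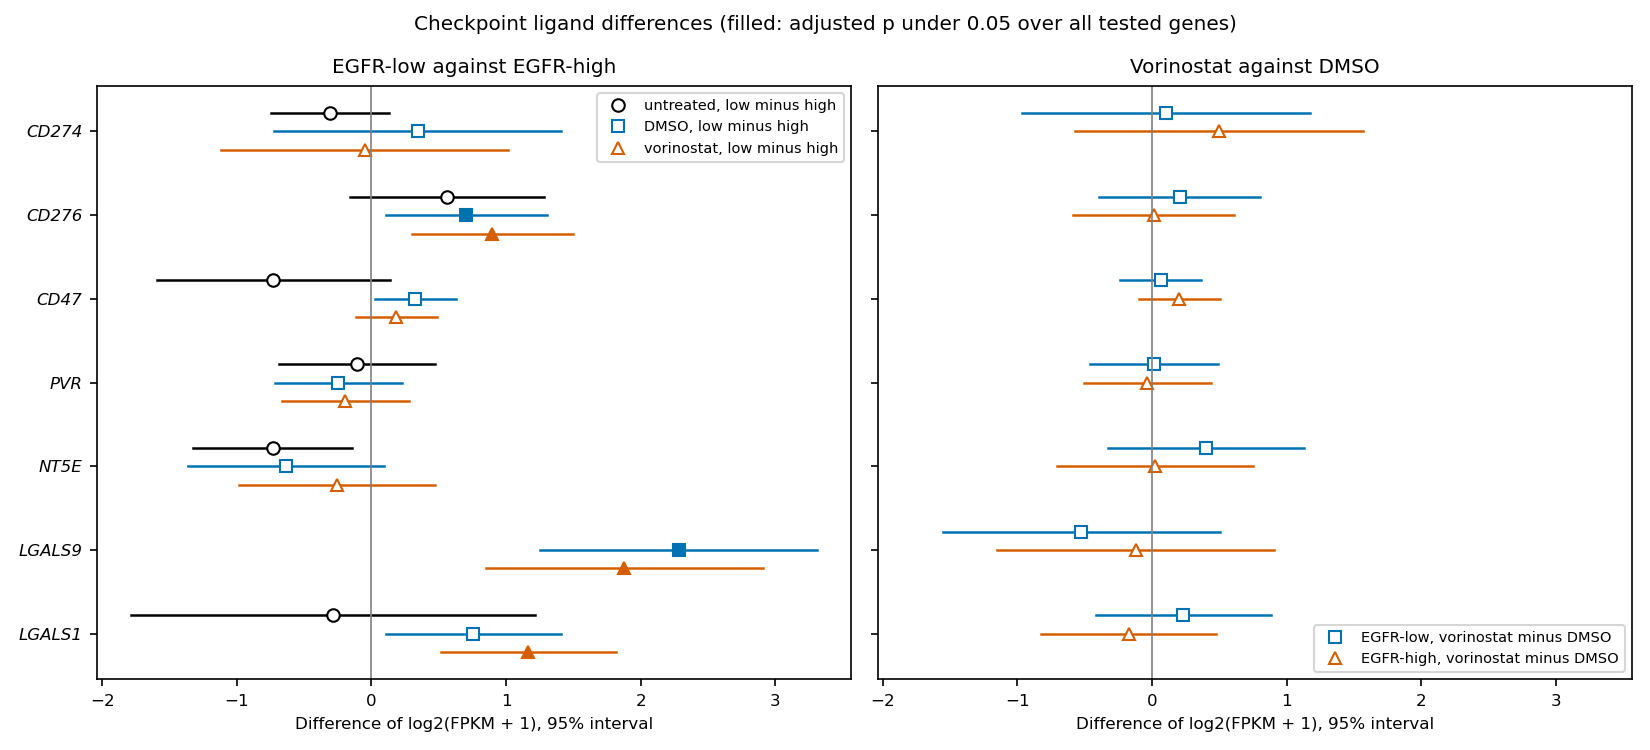
Difference of log2(FPKM + 1) for each member with its 95% interval, EGFR-low minus EGFR-high on the left and vorinostat minus DMSO on the right (filled: adjusted p under 0.05). LGALS9 lies farthest to the right, at 2.28 with DMSO and 1.88 with vorinostat, and no member is filled for the drug.

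Responses of the members to vorinostat were small beside their intervals. In EGFR-low the differences were 0.10 for CD274, 0.20 for CD276, 0.06 for CD47, 0.02 for PVR, 0.40 for NT5E (interval -0.32 to 1.13) and 0.23 for LGALS1, each with an adjusted p of 1. For NT5E, EGFR-low vorinostat 1 was at 129 FPKM, and without that library its difference was -0.04. In EGFR-high they were 0.01 for CD276, 0.20 for CD47, -0.04 for PVR, 0.02 for NT5E, -0.12 for LGALS9 and -0.18 for LGALS1, with adjusted p of 0.94 to 0.998. The interaction ranged from -0.40 for LGALS9 and -0.39 for CD274 to 0.38 for NT5E and 0.41 for LGALS1, all with an adjusted p of 0.999. Without both DMSO libraries that carried genes of the other line it was -1.02 for LGALS9, 0.61 for NT5E and 0.11 for LGALS1. For CD274 it was again -0.39. The intervals do not show that the drug left the members unchanged.

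Separation of neighbouring levels was read from the order of group means. Among untreated groups, the order of means had a step free of overlap for CD274 (Parental above EGFR-high), NT5E (EGFR-high above EGFR-low) and LGALS9 (EGFR-low above EGFR-high). Among the 4 groups of the vorinostat experiment, neighbours in that order were free of overlap only for CD274 (EGFR-low with DMSO above EGFR-high with DMSO) and LGALS1 (the same step). All other neighbours overlapped. At least 1 such step was found in 19.6% of all tested genes untreated and in 57.9% in the vorinostat experiment. Counted over pairs of groups, 6 of 7 members did not overlap between the lines with DMSO, all but PVR, where 69.3% of all tested genes did not. With vorinostat 3 of 7 did not overlap, namely CD47, LGALS9 and LGALS1, where 60.8% of all tested genes did not. With so many genes separating, neither count is a result about the members. Untreated, CD274, CD276, NT5E and LGALS9 (under the filter) did not overlap between EGFR-low and Parental, where 17.1% of all tested genes did not. NT5E and LGALS9 did not overlap between EGFR-low and EGFR-high (20.6%), and CD274 did not between EGFR-high and Parental (16.2%). Whether the members exceed these shares was not tested.

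Scaling between libraries bears on how many genes of the drug experiment were called in each direction. The median difference of all genes between EGFR-low and EGFR-high was 0.12 with DMSO and 0.16 with vorinostat, and 60.1% and 61.3% of the called genes were higher in EGFR-low. With median-of-ratios scaling those medians were 0.00344 and -0.00067 and the shares 49.8% and 50.2%, and with quantile normalization the shares were 52.6% and 53.7%. LGALS9 and, with vorinostat, LGALS1 were called under both scalings.

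Genes with related roles were read from lists named by pathway, beside 3.81% of all genes called untreated, 51.8% with DMSO and 59% with vorinostat. Other ligands of checkpoint receptors, inhibitory or costimulatory, had 10 tested of 16 in each experiment, HLA-G and CD200 only untreated and VTCN1 and TNFRSF14 only in the vorinostat experiment. There were 0 called between untreated EGFR-low and EGFR-high, with a list median of 0.22 against -0.03 over all genes. With DMSO 4 were higher and 5 lower (median -0.24 against 0.12), and with vorinostat 4 were higher and 4 lower (median 0.03 against 0.16). VTCN1 (B7-H4), like CD276 a B7 family member, was at 5.45, 19.1 and 19.3 FPKM in EGFR-low and at 2.07, 0.859 and 4.28 FPKM in EGFR-high with DMSO (difference 2.15, adjusted p 0.0113). The VTCN1 difference was smaller with vorinostat, although the interaction of -1.01 was not called (interval -2.88 to 0.86, adjusted p 0.999, limma). The nectins PVRL3 (NECTIN3) and PVRL2 (NECTIN2), kin of PVR, went opposite ways. PVRL3 was higher in EGFR-low by 1.81 with DMSO and 1.73 with vorinostat. PVRL2, also a ligand in the TIGIT system, was lower by -1.73 and -2.35. PVRL4 (NECTIN4) was also in the list and fell outside the rule for naming genes given below. ICOSLG, a costimulatory ligand, was lower by -1.69 with vorinostat. The called share was 90% with DMSO and 80% with vorinostat, of only 10 genes and in both directions.

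Of the regulators of CD274, 15 were analysed, all tested. Untreated, 0 were higher and 1 lower in EGFR-low (median 0.04 against -0.03), namely CMTM6, which keeps PD-L1 protein from degradation. CMTM6 was at 15.4, 24.5 and 15.9 FPKM in EGFR-low and at 51.3, 67.3 and 37.0 FPKM in EGFR-high, a difference of -1.42 (adjusted p 0.0162). With DMSO 7 were higher and 2 lower (median 0.42 against 0.12), and with vorinostat 8 were higher and 3 lower (median 0.44 against 0.16). That was 60% and 73.3% of the list, beside 51.8% and 59% of all genes. IRF1, a transcription factor of the interferon response, was higher in EGFR-low with DMSO, at 13.9, 21.7 and 20.2 FPKM against 5.55, 4.40 and 9.36 FPKM (difference 1.43), and with vorinostat (difference 1.74). COPS5, whose product removes ubiquitin from PD-L1, was higher by 1.46 with DMSO and 1.79 with vorinostat, and HIP1R, which directs PD-L1 to lysosomes, by 0.81 and 1.04. CD274 itself was not called in the main fit of these comparisons, and a link between IRF1 and CD274 was not tested.

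Genes of the adenosine pathway around NT5E had 8 tested of 16 untreated and 10 in the vorinostat experiment. Untreated, 1 was higher and 0 lower (median -0.48 against -0.03). That gene was ENPP1, which makes AMP, the substrate of NT5E, at 4.38, 3.18 and 5.01 FPKM in EGFR-low and 1.54, 1.24 and 1.68 FPKM in EGFR-high (difference 1.05, adjusted p 0.0387). With DMSO 4 were higher and 4 lower (median 0.07 against 0.12), and with vorinostat again 4 and 4 (median 0.01 against 0.16), which is 80% of the tested genes beside 51.8% and 59% of all genes. Both enzymes that remove adenosine were higher in EGFR-low, ADA by 1.16 with DMSO and 1.45 with vorinostat, and ADK by 0.92 and 1.203. The adenosine receptor ADORA1 was lower by -1.98 and -2.48.

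The phagocytosis list, around CD47, had 7 tested of 8. Untreated 0 were called (median -0.17 against -0.03), with DMSO 1 was higher and 3 lower (median -0.50 against 0.12), and with vorinostat 1 was higher and 5 lower (median -0.88 against 0.16). The called shares were 57.1% and 85.7%, beside 51.8% and 59% of all genes. With both first vorinostat libraries left out the last count was 1 higher and 2 lower. The gene that was higher was B2M, part of the class I complex that signals to macrophages through LILRB1, by 1.44 with DMSO and 1.79 with vorinostat. QPCTL, the enzyme that modifies CD47 so that SIRPA binds it, was lower in EGFR-low with DMSO by -1.37, and its relative QPCT by -1.18 with DMSO and -1.98 with vorinostat. THBS1, a secreted ligand of CD47, was lower by -1.96 with vorinostat, from 58.5, 6.87 and 24.6 FPKM in EGFR-high, and with both first vorinostat libraries left out it was -1.26 and not called (adjusted p 0.0565).

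Other galectins and the galectin-3 binding protein had 4 tested of 11 untreated, with 0 called (median -0.20 against -0.03), and 6 tested in the vorinostat experiment. With DMSO 2 were higher and 0 lower (median 0.67 against 0.12), and with vorinostat 3 were higher and 1 lower (median 0.56 against 0.16). LGALS3 was higher in EGFR-low by 1.29 and 0.95, and LGALS3BP by 0.93 and 1.21. The called shares were 33.3% with DMSO and 66.7% with vorinostat, beside 51.8% and 59% of all genes.

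Ligands that activate NK cells had 7 tested of 12 untreated, 0 higher and 2 lower (median -0.57 against -0.03). These were ICAM1, an adhesion ligand, by -1.64 (adjusted p 0.00877), and NCR3LG1 (B7-H6), by -1.34 (adjusted p 0.00734). In the vorinostat experiment 9 were tested, and 5 were higher and 4 lower with DMSO (median 0.53 against 0.12) and likewise with vorinostat (median 0.76 against 0.16). All 9 were thus called in both, beside 51.8% and 59% of all genes. The 5 that were higher were MICA, ULBP1, ULBP2, ULBP3 and RAET1E. ULBP1 was at 6.78, 7.52 and 8.31 FPKM in EGFR-low and at 1.29, 3.27 and 2.86 FPKM in EGFR-high with DMSO. The 3 largest differences were all negative: MICB was lower by -2.25 and -2.50, CD58 by -1.85 and -2.23, and ICAM1 by -1.72 and -2.03. ICAM1 was thus lower in EGFR-low in both experiments.

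Butyrophilins, B7 relatives that act on T cells, had 5 tested of 6 and 0 called untreated (median -0.23 against -0.03). With DMSO 2 were higher and 0 lower (median 0.19 against 0.12), and with vorinostat 3 were higher and 1 lower (median 0.50 against 0.16). The called shares were 40% and 80%, beside 51.8% and 59% of all genes. BTN3A2 was higher by 1.27 and 1.81 and BTN3A3 by 0.44 and 0.98, while BTN2A2 was lower by -0.98 with vorinostat. Between EGFR-low and Parental, and between EGFR-high and Parental, 0 genes of these lists were called, and the same held for vorinostat against DMSO in both lines.

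**Figure D3:**
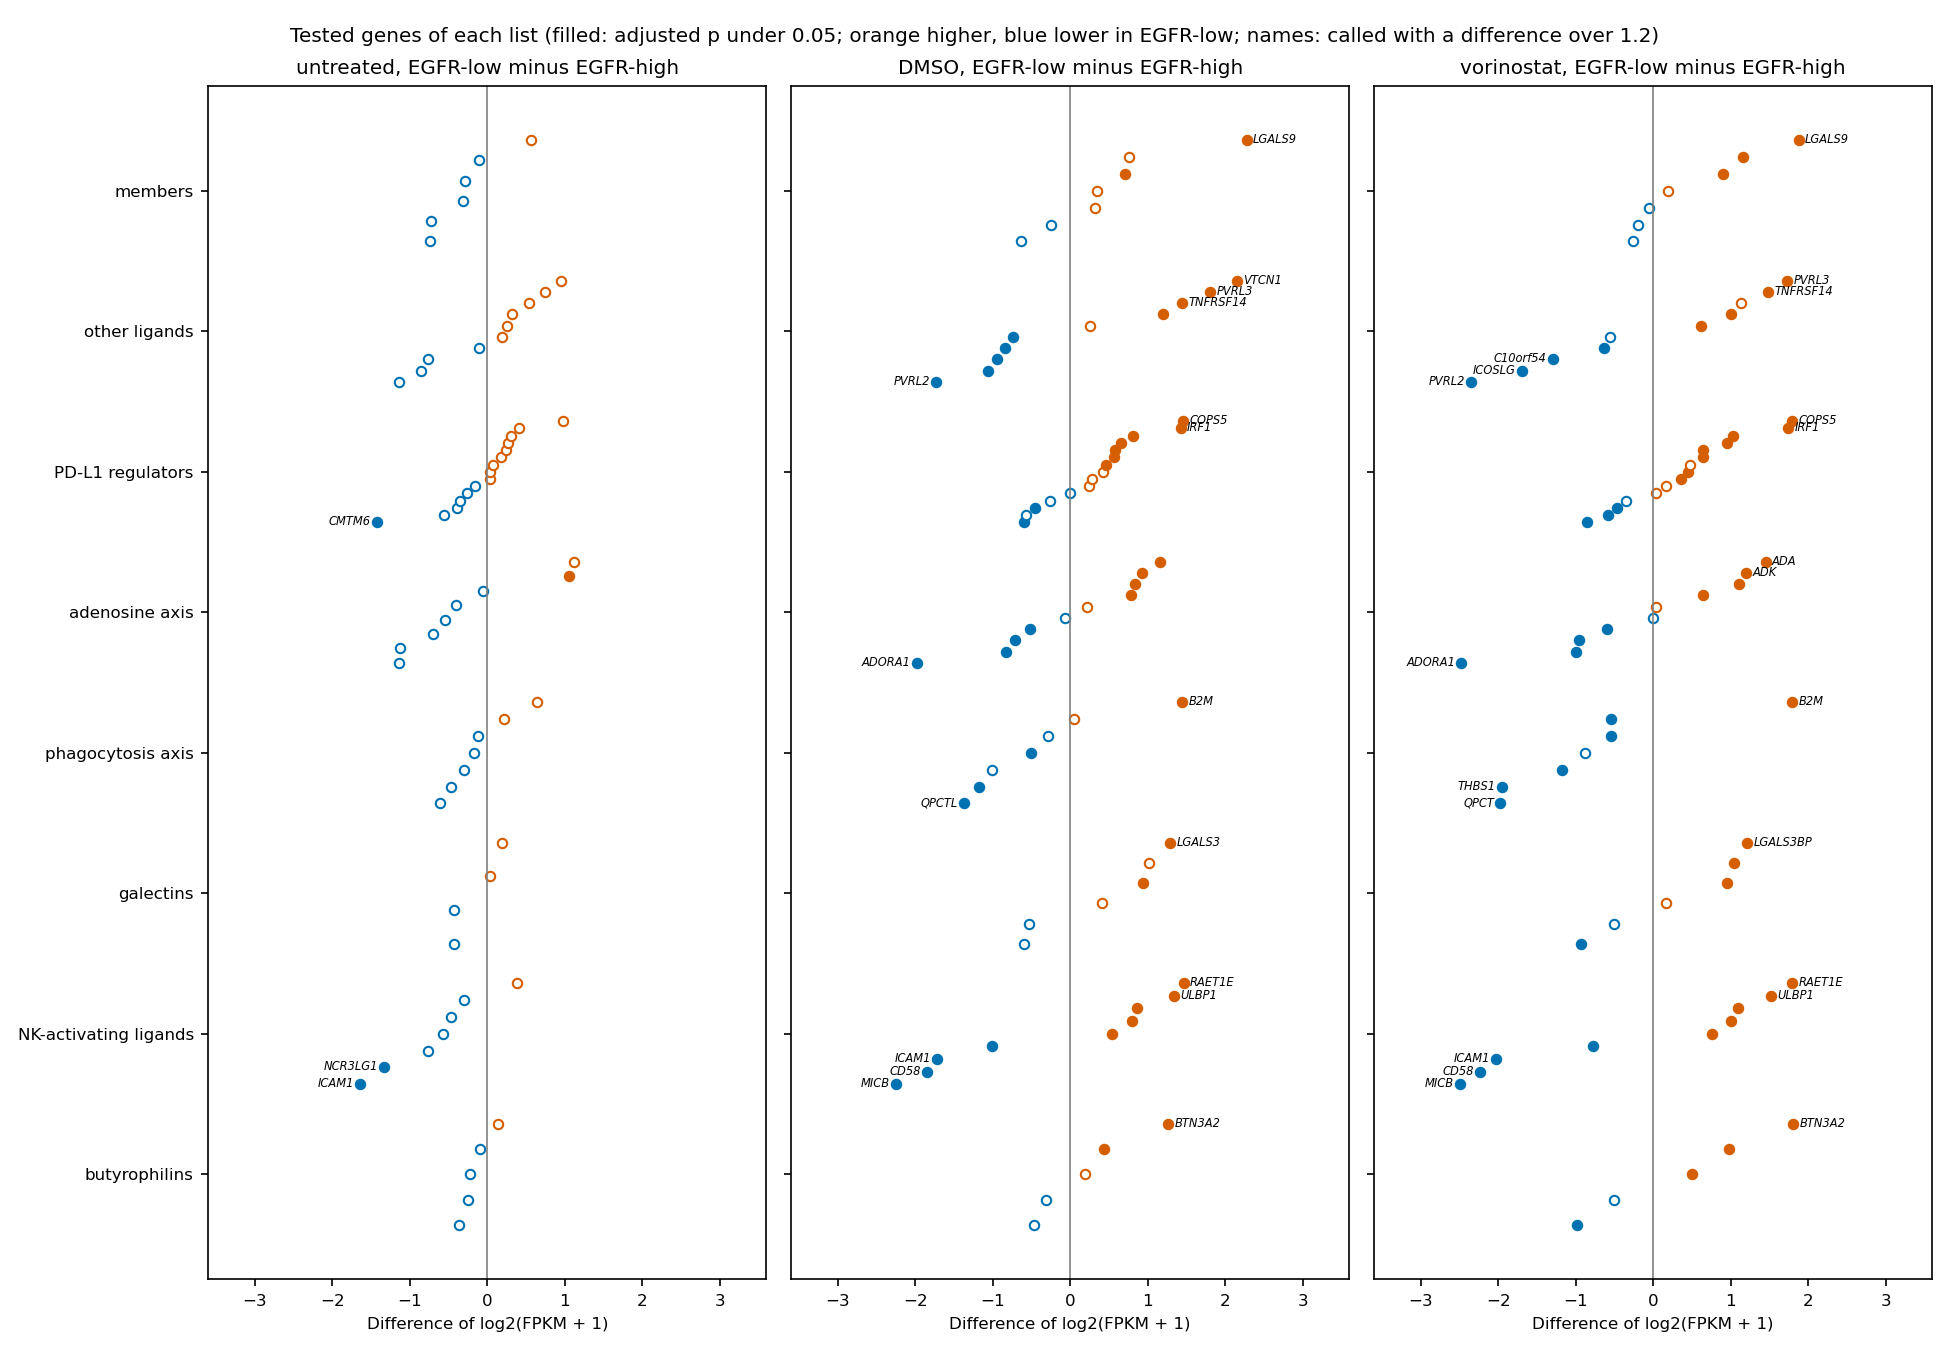
Differences of log2(FPKM + 1), EGFR-low minus EGFR-high, for each tested member and each tested gene of the related lists, untreated, with DMSO and with vorinostat (filled: called; orange: higher; blue: lower in EGFR-low). The untreated panel holds 4 filled genes, CMTM6, ENPP1, ICAM1 and NCR3LG1, and LGALS9 at 2.28 has the largest positive difference of the DMSO panel.

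A list of 13 receptors of immune cells, not all of them partners of a member, was also looked up. Only SIRPA, the partner of CD47, passed the filter, at 3.66 to 13.9 FPKM untreated and 7.35 to 14.8 FPKM in the vorinostat experiment. It was higher in EGFR-low by 0.57 with DMSO (adjusted p 0.0132) and 0.67 with vorinostat (adjusted p 0.00434). PDCD1, the receptor of CD274, was listed at 0 in all 21 libraries. Among leukocyte markers CD14 was called higher in EGFR-low by 0.82 and 1.54, at no more than 3.92 FPKM. Of 7 epithelial markers, 2 were higher and 3 lower in EGFR-low with DMSO and 3 were higher and 3 lower with vorinostat. KRT8 was lower by -1.46 and -2.16, while CDH1 was higher by 1.06 with DMSO.

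The genes most like each member were found by the correlation of log2 values over the 21 libraries among 11118 genes, after each gene's mean within each experiment was removed; it is a description with no p. LGALS1 was closest to ILK (r 0.948) and LAMTOR4 (0.947), and CD276 to IGSF8 (0.912) and DAPK3 (0.911). CD47 was closest to TMX4 (0.890) and PSMA6 (0.871), and NT5E to TMEM158 (0.872) and DGKG (0.865). The weakest likeness was that of CD274, to KLF6 (0.840) and IDS (0.824), and of PVR, to PPP1R15A (0.806) and PTK2B (0.798). With both first vorinostat libraries left out, the correlation of CD274 with IDS was 0.639 and with KLF6 0.810, and EGFR-high vorinostat 1 was the highest library for all 3 genes. The other correlations named were 0.793 to 0.959 over the same 19 libraries. LGALS9 was not among the genes tested in both experiments.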

How the data were processed

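The authors deposited 1 table of FPKM for each experiment, and that unit was inferred from the values and their processing notes (STAR 2.5.1b, Cufflinks 2.2.1, DESeq2 1.10.1, hg19), since the table names speak of gene counts. The experiments were fitted separately with limma 3.58.1 in R 4.3.3 on log2(FPKM + 1), with 1 mean per group, a mean-variance trend and no replicate block. Genes needed 1 FPKM in 3 libraries, and p-values were adjusted by Benjamini and Hochberg over all tested genes. Intervals are 95%. Tables and plots used Python 3.11.15, numpy 2.4.6, pandas 2.3.3 and matplotlib 3.10.9. Older symbols in the tables (PVRL2, PVRL3, C10orf54, H1F0) were matched to current ones.

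The members and lists were chosen with earlier results of these data known. From each list, at most 3 called genes with the largest differences were named in each comparison between the lines, and CMTM6, ENPP1, ICAM1 and NCR3LG1 fell under that rule. LGALS9B and LGALS9C were named for their shared sequence, after their values were seen. The NK-activating ligands that were higher were named to show both directions, also after their values were seen. The likeness of each member to other genes named the 2 with the highest correlation. The 4 checks of sort and drug were fixed names.

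Whether replicate numbers pair libraries was checked by correlating, across genes, the deviations from the group mean between groups of equal replicate number. For untreated EGFR-low and EGFR-high these were 0.343, 0.73 and 0.689, for EGFR-low and Parental 0.587, 0.416 and -0.092, and for EGFR-high and Parental 0.434, 0.757 and -0.00229. In the drug experiment they were 0.251, -0.207 and 0.285 between the lines with DMSO and 0.353, 0.351 and 0.163 with vorinostat. Between vorinostat and DMSO they were 0.267, 0.302 and 0.329 in EGFR-low and 0.0597, 0.189 and -0.143 in EGFR-high. The labels do not say that replicates are pairs, so the block was an alternative only.

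The alternatives tried were other pseudocounts (0.1 and 5), no filter or a filter of 5 FPKM, quantile normalization or median-of-ratios scaling, a fit on the compared groups alone, the replicate block, no trend, and leaving out each library.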

Additional observations from a re-analysis of the deposited data

Results flagged for a closer look

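A difference between groups set 3 results apart: the difference between EGFR-low and EGFR-high went opposite ways in the 2 experiments, with no overlap between the lines in either. This was looked for in 44 genes over 176 pairs of comparisons. For H1F0, a histone gene kept as a drug check, the log2 difference was -0.80 untreated and 1.17 with DMSO, which lie -1.96 apart. Against the value with vorinostat, 1.05, the untreated value of H1F0 lay -1.85 apart. For VTCN1, a ligand of the B7 family, the log2 difference was -0.71 untreated, from levels under the filter, and 2.15 with DMSO, which lie -2.86 apart. The tables of the 2 experiments were normalized separately, and the difference between experiments was not tested. Libraries far from the others of their group were not searched for gene by gene, since groups held 3 libraries.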

How the results depend on the processing

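Results were recomputed under every alternative that kept the gene. CD274 had no value with the filter of 5 FPKM, LGALS9 had none for vorinostat against DMSO in EGFR-high with only the compared groups, and untreated LGALS9 was not tested. The 2 alternatives that leave out a pair of libraries standing apart were chosen after seeing the data. LGALS9 with DMSO and with vorinostat, and LGALS1 with vorinostat, kept their direction and their call throughout. The number of members called was unchanged, or within 1.5 times, in 122 cases and moved in 13. Among member differences 807 kept direction and side of the threshold, 16 lost a call, 15 gained one and 53 reversed, none of which was called before. The cause was not tested.

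With DMSO the main count between the lines was 2 members. It was 1 with a pseudocount of 0.1, without a filter, with median-of-ratios scaling and without the trend, and 4 with only the compared groups and with both first vorinostat libraries left out, where 57.4% and 61.6% of all genes were called, against 51.8% before. Leaving out 1 library gave 1 to 2 members. For EGFR-low against Parental, where the main count was 0, leaving out 1 library gave 0 to 1. With the replicate block, which treats equal replicate numbers as paired, the count was 1 for untreated EGFR-low against EGFR-high (NT5E) and 2 for EGFR-low against Parental (CD274 and NT5E), where the main counts were 0. The paired fit gave 3 members with DMSO (CD276, NT5E and LGALS9), with 55.5% of all genes. Among named genes of the related lists, calls were lost with a pair left out only for THBS1 (-1.26, adjusted p 0.0565) and LGALS9C (adjusted p 0.0631), both with vorinostat.

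The log2 difference of CD274 between the lines with vorinostat was -0.05 and became 0.029 with a pseudocount of 0.1. With both first vorinostat libraries left out it was 0.46. That same omission reversed the vorinostat difference in EGFR-low for CD274 (-0.12), PVR (-0.16), NT5E (-0.037) and LGALS9 (0.080). In EGFR-high it reversed CD274 (-0.24), CD276 (-0.37) and NT5E (-0.16). The interaction reversed for CD274 (0.12), PVR (-0.084) and LGALS9 (0.29). Without the DMSO libraries that carried genes of the other line, the vorinostat difference in EGFR-high was 0.17 for LGALS9 and 0.0012 for LGALS1. PVR in the same comparison was 0.020 with median-of-ratios scaling and 0.031 with quantile normalization, which also moved its interaction to -0.013.

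Leaving out 1 library at a time also changed the sign of small differences. Untreated, EGFR-low minus EGFR-high ran from -0.73 to 0.16 for LGALS1 and from -0.235 to 0.082 for PVR. EGFR-low minus Parental ran from -0.043 to 0.30 for PVR, and EGFR-high minus Parental from -0.16 to 0.40 for CD47. Between the lines with vorinostat CD274 ran from -0.61 to 0.68. For vorinostat minus DMSO in EGFR-low the ranges were -0.12 to 0.22 for CD274, -0.16 to 0.12 for PVR, -0.037 to 0.65 for NT5E and -0.96 to 0.080 for LGALS9. In EGFR-high they were -0.24 to 1.06 for CD274, -0.37 to 0.32 for CD276, -0.16 to 0.16 for NT5E, -0.22 to 0.16 for PVR, -0.47 to 0.039 for LGALS1 and -0.29 to 0.17 for LGALS9. The interaction ran from -0.15 to 0.23 for PVR, -0.062 to 0.63 for NT5E, -0.83 to 0.20 for LGALS9, -0.22 to 0.0066 for CD47, -0.95 to 0.34 for CD274 and -0.12 to 0.57 for CD276.

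Over all genes, 431 were called between the untreated lines, with 174 without EGFR-low 1 and 965 with the replicate block. For EGFR-low against Parental 181 were called, with 33 without EGFR-low 1 and 525 with the block. For EGFR-high against Parental 8 were called, with 2 when only the compared groups were fitted and 15 without a filter. Counts between the lines stayed within 4901 to 7491 with DMSO (main 6334) and 5774 to 8288 with vorinostat (main 7222). The main count was 0 for vorinostat against DMSO and for the interaction. Without a filter it was 1 in EGFR-low and 1 for the interaction. Read depth is not listed, so counting error could not be separated from the spread between libraries.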
